A study of Caenorhabditis elegans with 33 samples.

Results

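Untreated larvae of the *TIR1; dpy-27::AID* degron strain were compared with wild type, Bristol N2, to describe the genes that differed before any auxin was given. The comparison takes in 6 of the 33 libraries of the study, 3 of each strain, which were chosen by their labels. All 6 came from whole hermaphrodite cultures in which synchronised L1 larvae had been grown for 24 hours at 20C on HGM plates with NA22 bacteria and no auxin, and which were collected at the L3 stage for poly(A) RNA sequencing. The degron strain carries *ieSi57* on chromosome II, which expresses TIR1 fused to mRuby from the promoter of *eft-3* in most tissues, ends in the *unc-54* 3′ end and brings a *Caenorhabditis briggsae unc-119* copy. It also carries *xoe41*, a degron and MYC tag on the *dpy-27* gene of chromosome III. N2 carries neither. The untreated *dpy-27::AID* strain, with 3 libraries, carries the tag without TIR1 and was used as a second reference.

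Dosage compensation in *C. elegans* brings the output of the paired X chromosomes of XX hermaphrodites down to that of the single X of males. The dosage compensation complex, built around condensin I DC with its SMC subunit DPY-27, binds the X chromosomes of hermaphrodites and lowers their transcription. In the auxin-inducible degron system the plant F-box protein TIR1 joins the SCF ubiquitin ligase of the worm, and auxin brings the tagged protein to it for destruction. Auxin is the intended trigger, so the untreated degron strain is the starting point against which depletion is read.

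The table gives 21975 genes in FPKM, that is, fragments per kilobase of transcript on a scale common to the libraries, and 13309 genes with a mean of at least 1 FPKM over the 33 libraries were tested. Fold changes are differences of mean log2(FPKM + 0.1). The added 0.1 can understate the change of genes near 0, while single libraries listed at 0 can enlarge it. For *arrd-25*, with N2 at 0, 0 and 78.3 FPKM, the log2 fold change was 6.34 at means of 74.9 against 26.1 FPKM. Counts are not in the table. Estimated from the smallest steps of low values, 1 fragment in a transcript of 1 kb was worth 0.0457 to 0.0599 FPKM in the degron strain and 0.0729 to 0.0904 in N2, so the step was coarser in N2, an estimate only, because Salmon can split a fragment between transcripts. N2 stood apart in other ways as well. Its libraries listed 1108 to 1865 of the tested genes at 0, against 454 to 702 in the degron strain. Its FPKM values summed to between 1.44 and 2.56 M per library, against 1.424 to 1.59 M. Correlations between N2 replicates were 0.762 to 0.834, against 0.822 to 0.898 in the degron strain. The part of these differences in the results was not tested. The labels number the replicates without saying whether they were separate cultures, so p-values measure the spread between these samples, which may be technical.

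X-linked genes as a class were higher in the untreated degron strain than in N2. Their median log2 fold change was 0.45, while that of autosomal genes was 0.03, so that X derepression, the difference of both medians, was 0.41. Of the 2061 X-linked genes tested, 77.2% were above 0, against 52.3% of the 11236 autosomal genes. By chromosome, chromosomes I to V had medians of 0.0049, 0.022, -0.016, 0.028 and 0.14. The X therefore had the highest median of the 6 chromosomes and chromosome V the next. Against the untreated *dpy-27::AID* strain, whose own X-linked median lay 0.06 above N2, the X-linked median was 0.35 and the autosomal median 0.0056, an X derepression of 0.35. These comparisons share the degron libraries, so they are not independent of each other.

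**Figure D1:**
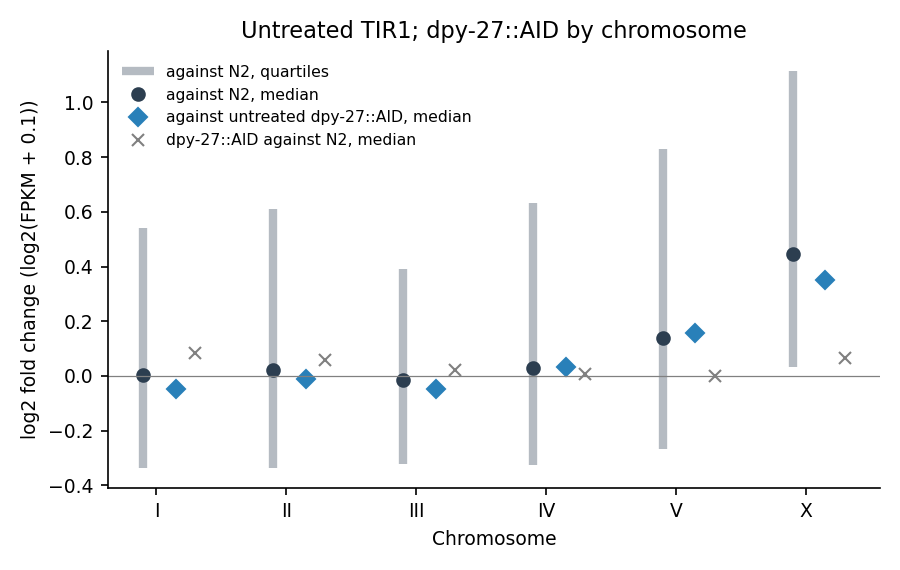
Log2 fold changes, on the log2(FPKM + 0.1) scale, of the untreated degron strain by chromosome. Dark circles are medians against N2 with bars from the lower to the upper quartile, blue diamonds are medians against untreated *dpy-27::AID*, and grey crosses are medians of *dpy-27::AID* against N2. The X has medians of 0.45 and 0.35 in the first 2 of these, and the next highest are those of chromosome V at 0.14 and 0.16.

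The shift was spread along the X. In 9 windows of 2 Mb along the chromosome, each with 150 to 276 tested genes, the median log2 fold change against N2 ran from 0.33, between 14 and 16 Mb, to 0.56, in the first 2 Mb. Between 71.2% and 80.8% of the genes in each window were above 0. Against untreated *dpy-27::AID* the same windows had medians of 0.21 to 0.51, again with the lowest between 14 and 16 Mb. No window was at or below the autosomal median in either comparison.

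The difference between X and autosomes was also present at each level of expression, although the fold changes themselves depended on it. Genes with a mean of 1 to 5 FPKM had medians of 1.21 on the X and 0.73 on autosomes. At 5 to 20 FPKM the medians were 0.57 and 0.19, and at 20 to 100 FPKM they were 0.32 and -0.07. Genes at 100 to 500 FPKM had medians of 0.07 and -0.29, and those at 500 FPKM or more had 0.01 and -0.51. X minus autosomes thus lay between 0.36 and 0.52 in every bin, while weakly expressed genes of either class were listed higher than in N2 and strongly expressed autosomal genes lower. Against untreated *dpy-27::AID* the difference was 0.30 to 0.38, and the autosomal medians ran only from -0.11 to 0.25. The 12 mitochondrial genes tested were all below 0 against N2, with a median of -0.46, and 8 of them had an unadjusted p under 0.05. That median shrank to -0.08, with 8 of 12 below 0, when libraries were scaled to equal FPKM sums, and against untreated *dpy-27::AID* it was 0.04.

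**Figure D2:**
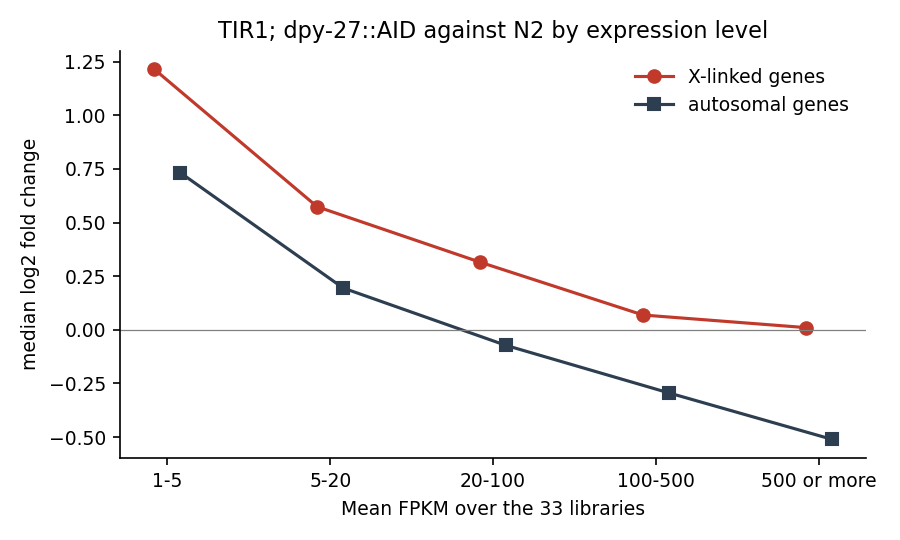
Median log2 fold change of the untreated degron strain against N2 (vertical axis) in 5 bins of mean FPKM over the 33 libraries (horizontal axis), for X-linked genes (red circles) and autosomal genes (dark squares). Both classes fall with the level of expression, and X-linked genes lie 0.36 to 0.52 above autosomal genes in every bin.

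Each library was given an X:A score, for which log2 values were first taken relative to the mean of the gene in all 33 libraries, and the autosomal median of the library was then subtracted from its X-linked median. The degron libraries scored between -0.033 and 0.090, with a mean of 0.012 ± 0.068 (SD, n = 3). N2 scored between -0.47 and -0.28, with a mean of -0.40 ± 0.10 (SD, n = 3). All 3 degron libraries were above all 3 N2 libraries, by 0.42 on average (two-sided exact permutation test, p = 0.10, which is the lowest value possible for 3 against 3). Untreated *dpy-27::AID* scored -0.34 ± 0.080 (SD, n = 3), with a highest value of -0.25, and the degron libraries were all above it too, by 0.36 on average (exact permutation test, p = 0.10). On auxin the degron strain scored 0.44 ± 0.039 (SD, n = 3), and its X derepression relative to its own untreated larvae was 0.44. The untreated larvae therefore lay between N2 and the treated larvae of their own strain, with no overlap on either side.

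**Figure D3:**
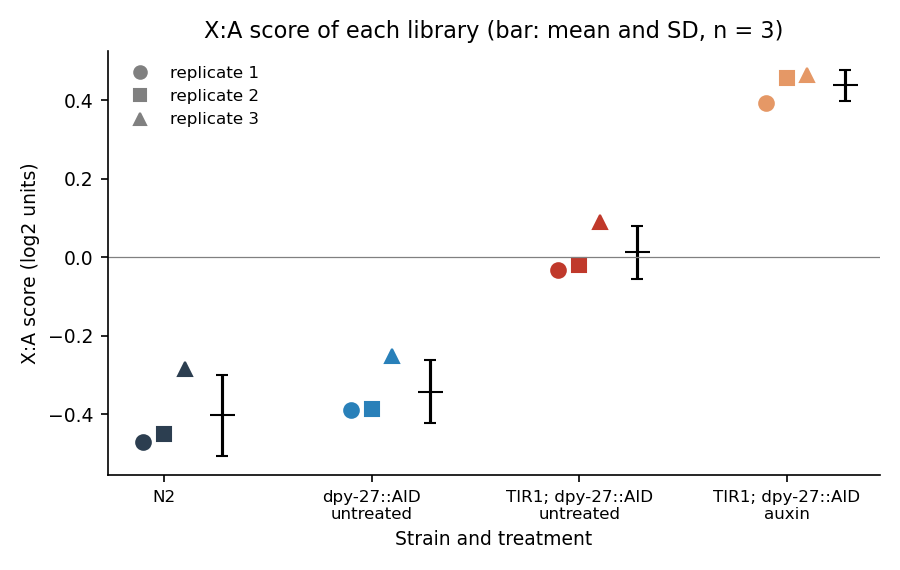
X:A score (vertical axis, log2 units) of each library of N2, untreated *dpy-27::AID*, untreated *TIR1; dpy-27::AID* and auxin-treated *TIR1; dpy-27::AID*. Symbols mark the replicate number, and bars give the mean and SD of 3 libraries. The untreated degron libraries, at -0.033 to 0.090, sit above all 6 libraries without TIR1 and below the 3 treated ones.

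Single genes passed the test far less often. With a Benjamini-Hochberg adjusted p under 0.05 in limma, 39 of the 13309 genes (0.293%) differed between the degron strain and N2, of which 29 (0.218%) were higher and 10 (0.0751%) lower. Of those that were higher, 15 were X-linked and 14 autosomal. All 10 that were lower were autosomal. Without adjustment, p was under 0.05 for 378 X-linked genes that were higher and 15 that were lower, against 743 and 745 on autosomes. All 3 degron libraries lay above all 3 N2 libraries at 333 X-linked genes (16%) and below them at 14 (0.679%), while for autosomal genes these counts were 639 (5.69%) and 544 (4.84%). Over all genes tested, the shares were 7.30% above and 4.22% below. The count of 39 turned on single libraries. It was 14, 131 and 946 without N2 replicate 1, 2 and 3, and 23, 5 and 103 without degron replicate 1, 2 and 3. The balance of directions turned as well, to 9 higher and 14 lower without degron replicate 1 and to 34 higher and 69 lower without degron replicate 3. X-linked genes that were lower appeared only without N2 replicate 3, where there were 8, and with array quality weights, where there were 4. With libraries scaled to equal FPKM sums the count of all calls was 117, of which 115 were higher and 2 lower, and the median of all genes then moved from 0.09 to 0.46.

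For most of these genes it was N2 that stood at the end of the range. The N2 mean was the lowest of all 11 conditions for 23 of the 29 genes that were higher in the degron strain, and the highest of all 11 for 10 of the 10 that were lower. Over all genes tested, the N2 mean was lowest for 17.2% and highest for 14.7%. The called genes were selected by their difference from these N2 libraries, which favours an extreme N2 mean. The shares over all genes are therefore no baseline for them. These ranks are of means of log2 values. By them the degron mean was itself the highest of 11 for 5 of the 29 and the lowest for 4 of the 10. At least 1 N2 library was listed at 0 for 17 of the 29, and all 3 were for *F30A10.11*, *F30A10.14* and *clc-7*. All 30 libraries outside N2 lay above all 3 N2 libraries for 6 of the 39 genes and below them for 3. Against untreated *dpy-27::AID*, the median log2 fold change of the 29 genes was 0.39, compared with 3.98 against N2, and the 10 genes one of -0.45, compared with -0.84. The same selection enlarges the values against N2, so the medians of both comparisons are not on an equal footing.

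**Figure D4:**
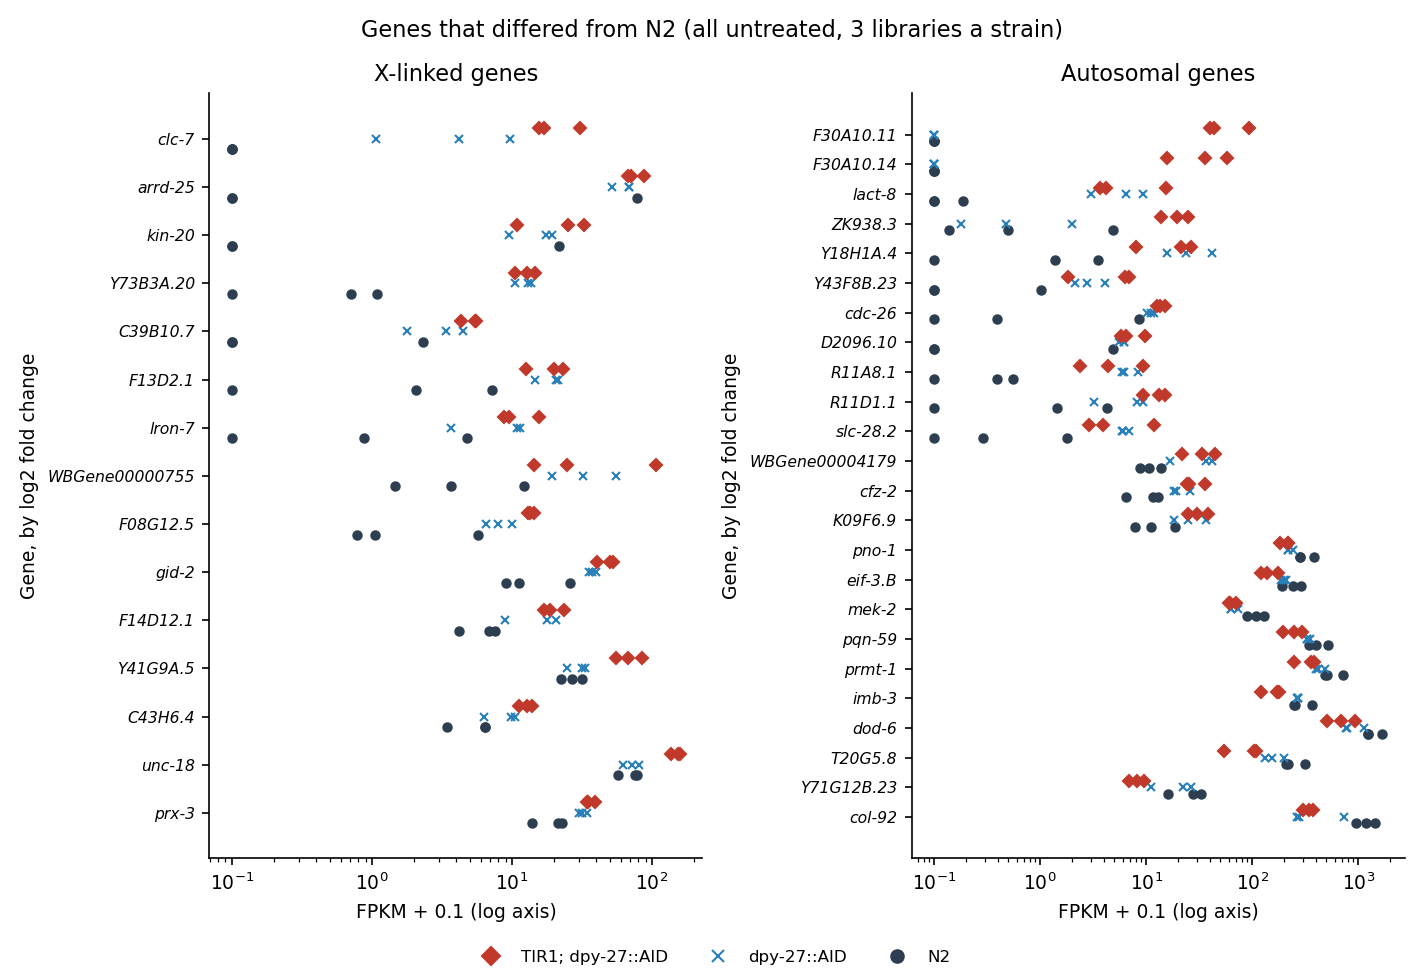
FPKM plus 0.1 (horizontal log axis) of the 15 X-linked and 24 autosomal genes that differed from N2, ordered by log2 fold change. Each gene has 3 libraries of untreated *TIR1; dpy-27::AID* (red diamonds), of untreated *dpy-27::AID* (blue crosses) and of N2 (dark circles), and a value at the left end, 0.1, is a gene listed at 0. For most genes that were higher the blue crosses lie near the red diamonds, but for *F30A10.11*, *F30A10.14*, *ZK938.3*, *unc-18* and *Y41G9A.5* they lie near the dark circles.

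The genes with the smallest adjusted p were a pair of neighbours on chromosome I of WBcel235. *F30A10.11* (WBGene00009268, 9477459 to 9478151, plus strand) was at 93.2, 43.7 and 40.1 FPKM in the degron strain and listed at 0 in all 3 N2 and all 3 untreated *dpy-27::AID* libraries. *F30A10.14* (WBGene00045473, 9476597 to 9477181, plus strand) was at 57.9, 35.6 and 15.4 FPKM and likewise listed at 0 in all 6 of those libraries. The adjusted p in limma was 3.06e-07 for each, against N2 and against *dpy-27::AID* alike, and no fold is given against groups at 0. These p-values use a spread estimated over all 11 conditions, most of which sit at or near 0 for both genes, and both genes passed the filter on mean FPKM through the TIR1 libraries alone. In a fit on the 6 libraries compared, the adjusted p against N2 was 0.0492 for *F30A10.11* and 0.0833 for *F30A10.14*. Both are annotated as protein-coding, and neither has a name beyond its sequence designation.

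Across the whole series, these genes followed the labels for TIR1. Of the 21975 genes in the table, they were the only 2 whose 12 libraries from strains with TIR1, with or without auxin and with or without the *cec-4* mutation, all lay above all 21 libraries from strains without it, and no gene had all 12 below. *F30A10.11* was listed at 0 in 20 of the 21 libraries without TIR1 and reached 0.988 FPKM in the other. *F30A10.14* was listed at 0 in 21 of 21. One library labelled as a TIR1 strain was far below the rest, replicate 3 of untreated *TIR1; dpy-27::AID; cec-4*, at 2.87 FPKM for *F30A10.11* and 1.80 for *F30A10.14*, where the other 11 had at least 20.1 and 14.6. Its X:A score of -0.36 was also lower than those of replicates 1 and 2 of its condition, at -0.12 and -0.16. That library is not among the 6 compared. Among libraries without TIR1, replicate 3 of auxin-treated *dpy-27::AID* also stood apart, with an X:A score of 0.43 against -0.34 and -0.37 in replicates 1 and 2. It enters the shared estimate of the spread, and the cause was not tested. When the low TIR1 library was left out, a step added after its values were seen, 4 genes had all 11 TIR1 libraries above all 21 others. They were the pair on chromosome I with *ZK938.3* and *unc-18*, and 0 genes had these libraries below.

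*ZK938.3* lies on chromosome II (9831521 to 9833955, minus strand) and has no further name. It was at 24.5, 19.6 and 13.6 FPKM in the degron strain and at 0.0386, 0.394 and 4.79 in N2, with no overlap (log2 fold change 4.76, standard error 1.06, limma adjusted p = 0.0478). The call against N2 held in 7 of 15 alternatives. Like the pair on chromosome I, *ZK938.3* passed the filter on mean FPKM through the TIR1 libraries alone. Without that filter it was not called against N2 (limma adjusted p = 0.0667). In untreated *dpy-27::AID* it was at 0.0770, 0.374 and 1.87 FPKM (log2 fold change 5.09, limma adjusted p = 0.0768). Over the 11 TIR1 libraries it ran from 12.9 to 24.5 FPKM, and over the 21 without TIR1 from 0.0326 to 4.79. In the low TIR1 library named above it was at 2.36 FPKM, within the range of the libraries without TIR1.

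*unc-18*, on the X (7682896 to 7686037, plus strand), encodes the Munc18 protein that binds syntaxin and is needed for synaptic vesicle release. It was at 138, 154 and 158 FPKM in the degron strain and at 77.8, 56.8 and 75.9 in N2. The groups were separate (log2 fold change 1.11, standard error 0.24, limma adjusted p = 0.0464). In untreated *dpy-27::AID* it was at 62.5, 72.4 and 80.7 FPKM, close to N2, which gives a log2 fold change of 1.06 (limma adjusted p = 0.0837). On auxin the degron strain had 192, 170 and 161 FPKM. Across the series *unc-18* ran from 138 to 199 FPKM in the 11 TIR1 libraries and from 50.6 to 111 in the 21 without TIR1, and it was 55.0 in the low library named above.

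**Figure D5:**
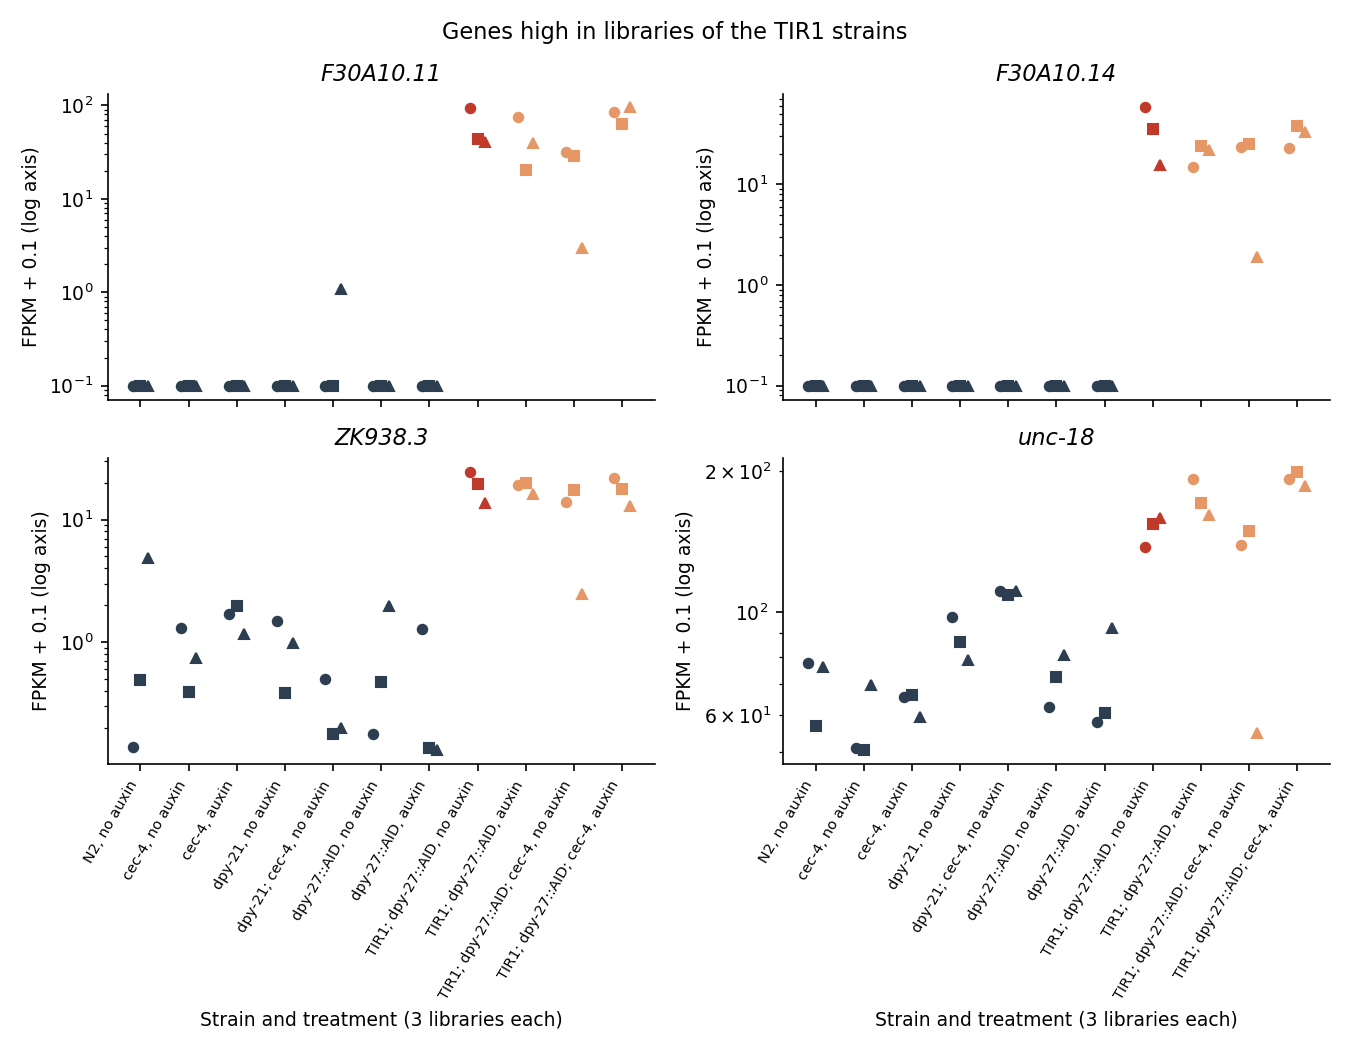
FPKM plus 0.1 (vertical log axes) of *F30A10.11*, *F30A10.14*, *ZK938.3* and *unc-18* in all 33 libraries, by strain and treatment. Circles, squares and triangles are replicates 1, 2 and 3, with the untreated degron strain in red, the other TIR1 conditions in orange and strains without TIR1 in dark blue, and points at 0.1 are genes listed at 0. For *F30A10.11* and *F30A10.14* every TIR1 library lies above every library without TIR1. For *ZK938.3* and *unc-18* the same holds except for replicate 3 of untreated *TIR1; dpy-27::AID; cec-4*.

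The surroundings of the pair on chromosome I were chosen after its values were seen. No other gene there had all 12 TIR1 libraries above all 21 others. Within 10 kb on each side 12 genes are annotated, the pair included, and only some of the others are given here. *calm-1* was at 77.2, 59.6 and 45.5 FPKM in the degron strain and 39.4, 41.3 and 23.4 in N2, with no overlap and a log2 fold change of 0.82 that did not pass the test (limma adjusted p = 0.154). The Skp1-related genes *skr-1* and *skr-2*, whose proteins belong to SCF ligases, had log2 fold changes of -0.16 and -0.31 (limma adjusted p = 0.485 and 0.667). *F30A10.2* was at 62.1, 8.75 and 7.56 FPKM against 7.43, 5.91 and 35 in N2, so both groups had 1 high library.

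Among the other X-linked genes that were higher, *Y73B3A.20* (47690 to 58063) had the smallest adjusted p. It was at 10.5, 12.7 and 14.4 FPKM against 0, 0.609 and 0.987 in N2 (log2 fold change 4.88, standard error 0.64, limma adjusted p = 0.000158). It was at 10.5, 13.7 and 13 FPKM in untreated *dpy-27::AID*, so N2 alone was low, and all 30 libraries outside N2 lay above it. *F13D2.1* had the same arrangement, with 12.5, 20.0 and 22.9 FPKM against 0, 1.97 and 7.07 in N2 and 14.6, 20.4 and 21.1 in *dpy-27::AID*. So did the unnamed pseudogene WBGene00000755, at 107, 24.8 and 14.3 FPKM against 1.35, 3.56 and 12.1.

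Several of the X-linked genes have known roles. *prx-3*, which belongs to the peroxisome biogenesis genes, was at 34.9, 34.4 and 38.8 FPKM against 13.8, 22.6 and 21.2 in N2 (log2 fold change 0.94, limma adjusted p = 0.0374) and 30.1, 34.5 and 31.6 in *dpy-27::AID*. *gid-2*, related to a subunit of the GID ubiquitin ligase of yeast, was at 40.5, 50.1 and 52.8 FPKM against 11.2, 9.03 and 25.9 (log2 fold change 1.78, limma adjusted p = 0.0497). The claudin-like gene *clc-7* was at 30.7, 15.6 and 16.8 FPKM and listed at 0 in all 3 N2 libraries (limma adjusted p = 0.0374). In *dpy-27::AID* it was at 0.974, 9.51 and 4.09 FPKM, below the degron strain in each library.

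Of the 15 X-linked genes, 7 had at least 1 N2 library listed at 0, and in 2 of these, *arrd-25* and *kin-20*, the third N2 library lay within the range of the degron strain. *arrd-25*, of the arrestin domain family, was at 70.6, 66.9 and 87.2 FPKM in the degron strain and at 0, 0 and 78.3 in N2, so the groups overlapped. *kin-20*, a casein kinase I of the Period-associated type, was at 32.8, 10.8 and 25 FPKM against 0, 0 and 21.7 in N2, which overlapped as well. Their limma adjusted p-values were 0.0379 and 0.0471, and 0.0617 and 0.0947 with a pseudocount of 1. *C39B10.7*, with N2 at 0, 2.21 and 0 FPKM, and *lron-7*, with N2 at 4.71, 0 and 0.773, also lost their calls with that pseudocount (limma adjusted p = 0.0947 and 0.0647). In *dpy-27::AID*, *arrd-25* was at 68.4, 51.4 and 68.1 FPKM and *kin-20* at 9.49, 19.3 and 17.3.

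*Y41G9A.5* (2946667 to 2949026) differed from most of its class, since its level in *dpy-27::AID* was that of N2. It was at 55.6, 85.3 and 67.6 FPKM in the degron strain, 26.9, 31.5 and 22.3 in N2 and 24.7, 33.1 and 31.5 in *dpy-27::AID*. The log2 fold changes were 1.36 against N2 (limma adjusted p = 0.0374) and 1.21 against *dpy-27::AID* (limma adjusted p = 0.0837). On auxin it was at 138, 102 and 125 FPKM. The remaining X-linked genes, *F08G12.5*, *F14D12.1*, *C39B10.7*, *C43H6.4* and *lron-7*, had log2 fold changes of 1.27 to 4.15 against N2 and 0.39 to 0.76 against *dpy-27::AID*, and none passed the second test.

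Of the autosomal genes that were higher, *lact-8*, of the beta-lactamase domain family, was at 15.3, 4.07 and 3.57 FPKM against 0, 0.0873 and 0 in N2 (log2 fold change 5.65, limma adjusted p = 3.66e-05). It was at 2.90, 6.32 and 9.26 FPKM in *dpy-27::AID*, and all 30 libraries outside N2 were above N2. *cfz-2*, a Frizzled receptor for Wnt ligands, was at 35.4, 24.0 and 25.1 FPKM against 11.4, 6.34 and 12.8, without overlap (log2 fold change 1.498, limma adjusted p = 0.0244). *cdc-26*, a subunit of the anaphase-promoting complex, was at 13.4, 12.59 and 14.9 FPKM against 8.49, 0 and 0.293 (log2 fold change 4.30, limma adjusted p = 0.0497). In *dpy-27::AID* it was at 10.05, 10.92 and 11.65 FPKM, and its call against N2 held in 6 of 15 alternatives. Of the 14 autosomal genes that were higher, 10 had at least 1 N2 library listed at 0, which can enlarge the fold change. *slc-28.2*, of the concentrative nucleoside transporter family, was at 11.7, 2.80 and 3.83 FPKM against 0.189, 0 and 1.69. Apart from *F30A10.11*, *F30A10.14* and *ZK938.3*, the 14 genes included 7 others, *Y43F8B.23*, *R11A8.1*, *Y18H1A.4*, *D2096.10*, *R11D1.1*, *K09F6.9* and the pseudogene WBGene00004179, with log2 fold changes of 1.38 to 4.40 against N2 and -0.61 to 0.98 against *dpy-27::AID*.

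The 10 genes that were lower were mostly well expressed, and each was without overlap. Autosomal genes of 100 to 500 FPKM as a whole had a median of -0.29 against N2, and those of 500 or more -0.51. With libraries scaled to equal FPKM sums only 2 genes were called lower. The part of that general shift in these 10 fold changes was not tested. *dod-6*, a gene found downstream of the FOXO factor DAF-16, lies beside *T20G5.8* on chromosome III. *dod-6* was at 931, 509 and 692 FPKM against 1687, 1222 and 1246 in N2 (log2 fold change -0.99, limma adjusted p = 0.0260). *T20G5.8* was at 53.7, 105 and 108 FPKM against 316, 208 and 217 (log2 fold change -1.52, limma adjusted p = 0.0219), and in *dpy-27::AID* it was in between, at 132, 155 and 197. For both genes all 30 libraries outside N2 lay below N2. *col-92*, a cuticle collagen, was at 300, 375 and 342 FPKM against 1431, 1172 and 949 in N2 (log2 fold change -1.79, limma adjusted p = 0.0374). Its levels in *dpy-27::AID*, at 275, 265 and 730 FPKM, spanned those of the degron strain.

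The other genes that were lower include *mek-2*. *mek-2*, the MAP kinase kinase of the Ras pathway, was at 60.7, 70.3 and 61.2 FPKM against 128, 108 and 89.3 (log2 fold change -0.74, limma adjusted p = 0.0335), and at 72.5, 62.3 and 62.6 in *dpy-27::AID*. *imb-3*, an importin beta of nuclear import, was at 172, 122 and 177 FPKM against 366, 246 and 255 (log2 fold change -0.88, limma adjusted p = 0.0451). In *dpy-27::AID* it was at 271, 272 and 262 FPKM, above every degron library (log2 fold change -0.79, limma adjusted p = 0.0837). *eif-3.B*, a subunit of translation initiation factor eIF3, *prmt-1*, a protein arginine methyltransferase, *pno-1*, for a ribosome assembly factor, and *pqn-59*, for a glutamine- and asparagine-rich protein, had log2 fold changes of -0.73, -0.80, -0.61 and -0.78. *Y71G12B.23* completed the 10, at 6.75, 8.09 and 9.37 FPKM against 32.4, 27.7 and 16.08. Exons of 7 of the 39 genes overlap a gene on the opposite strand and those of 2, *pqn-59* and *D2096.10*, one on the same strand. The library kit keeps the strand, whether the quantification used it is not stated, and the part of these overlaps in the values was not tested.

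Compared directly with untreated *dpy-27::AID*, which differs by TIR1 and strain history, 5 genes (0.0376%) had an adjusted p under 0.05 in limma, 3 higher (0.0225%) and 2 lower (0.015%), and 1766 had an unadjusted p under 0.05. Of the 39 genes that differed from N2, only *F30A10.11* and *F30A10.14* were among the 5. *dpy-18*, a prolyl 4-hydroxylase subunit that modifies cuticle collagens, was at 103, 91.2 and 112 FPKM in the degron strain and 264, 245 and 175 in *dpy-27::AID* (log2 fold change -1.14, standard error 0.19, limma adjusted p = 0.00859). N2, at 193, 137 and 152 FPKM, was above every degron library and overlapped *dpy-27::AID*. *pyr-1*, for an enzyme of pyrimidine synthesis, was at 24.7, 6.89 and 15.5 FPKM against 140, 129 and 39.5 (log2 fold change -2.69, limma adjusted p = 0.0346), while N2 overlapped the degron strain at 18.1, 16 and 33. *srw-85*, of a chemoreceptor family, was at 61.7, 75.4 and 44.4 FPKM against 0.367, 0.194 and 3.27 (log2 fold change 6.26, limma adjusted p = 0.0400). N2 had 24.9, 26.4 and 29.97 FPKM of *srw-85*, above every untreated *dpy-27::AID* library and below every degron library. On auxin *dpy-27::AID* had 1.01, 0 and 56.8 FPKM. The count of 5 also turned on single libraries: it was 338, 2 and 50 without degron replicate 1, 2 and 3, 2 and 635 without *dpy-27::AID* replicate 1 and 3, and 8 and 14 without N2 replicate 1 and 3, which enter through the shared estimate of the spread.

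None of the genes for the dosage compensation complex passed the test. *dpy-27*, the tagged gene, was at 28.2, 21.7 and 29.7 FPKM in the degron strain and 20.2, 24.4 and 30.2 in N2, which overlapped (log2 fold change 0.10, standard error 0.18, limma adjusted p = 0.875). In *dpy-27::AID* it was at 31.2, 28.3 and 31.4 FPKM. These are transcript levels, and the DPY-27 protein was not measured in these files. In antibody staining of intestinal nuclei, the study reported somewhat less DPY-27 in this strain without auxin than in wild type. The other subunits of condensin I DC, *mix-1*, *dpy-26*, *dpy-28* and *capg-1*, had log2 fold changes of 0.12, 0.10, -0.11 and 0.20 with overlapping groups. The X-binding proteins outside the condensin had log2 fold changes of 0.41 for *sdc-2*, the hermaphrodite-specific factor that starts loading on the X, 0.44 for *sdc-3* and -1.21 for *sdc-1*. *sdc-1* was weakly expressed, at 0.864, 0.0739 and 1.58 FPKM against 1.22, 3.81 and 0.566. *dpy-30*, shared with a histone H3 lysine methyltransferase complex, had -0.12 and *dpy-21*, the H4K20 demethylase, 0.12. The medians over the list were 0.10 for 5 condensin genes and 0.12 for the other 5, against 0.09 over all genes tested. Of these 10 genes 0 were called, where 0.293% of all genes were. With the direction of several of these values changing between alternatives, no direction is read from them.

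The worm genes after which parts of the transgene are named were examined too. Their values are those of the whole genes and do not measure the transgene itself. *eef-1A.1*, the gene behind the *eft-3* promoter, was at 7380, 6154 and 9413 FPKM against 17100, 11630 and 9414 in N2 (log2 fold change -0.71, limma adjusted p = 0.0887). It passed the test in 3 of 15 alternatives. *unc-54*, for muscle myosin, was at 664, 778 and 1379 FPKM against 1800, 1148 and 862, which overlapped. *unc-119* was at 0, 6.18 and 18.3 FPKM against 15.4, 29.8 and 11.1, which overlapped as well. TIR1 and mRuby themselves are not genes of the table.

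Genes that work with TIR1 or with the dosage compensation complex had no calls. With 0.293% of all genes called, lists this short were likely to have none, so 0 calls is not a result about their members. The same holds for the other short lists described here. None of the 6 genes of the SCF core (*cul-1*, *skr-1*, *skr-2*, *rbx-1*, *ned-8* and *cand-1*) was called, and their median log2 fold change was -0.12. None of the 32 proteasome genes was called either, with a median of -0.16 and examples such as *pas-3*, at 348, 409 and 364 FPKM against 586, 448 and 322. The 9 genes for H4K20 and H3K9 methylation and tethering had a median of -0.03 and 0 calls. Among them *set-4*, the H4K20 methyltransferase for the di- and trimethyl states, was at 22.6, 21.8 and 24.4 FPKM against 30.6, 24.6 and 25.6, without overlap (log2 fold change -0.22, limma adjusted p = 0.609). Of the genes for the X signal and sex determination, 9 were tested, with 0 calls and a median of 0.14, and *fem-2* was at 25.2, 30.4 and 38.9 FPKM against 59.8, 38.2 and 43.7. The 4 mitotic condensin genes had 0 calls and a median of -0.13.

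Many cuticle and molting genes cycle with each larval stage, and some of them varied widely between replicates of one strain. *dpy-5*, a cuticle collagen, was at 1996, 157 and 231 FPKM in degron replicates 1, 2 and 3, at 445, 496 and 1018 in N2 and at 2570, 2306 and 1092 in *dpy-27::AID*. *dpy-4*, another collagen, was at 1574, 146 and 336 FPKM against 483, 474 and 1187 in N2. *rol-6* was at 768, 49.3 and 115 FPKM against 196, 158 and 611. In these 3 collagens degron replicate 1 was well above replicates 2 and 3, and N2 replicate 3 well above replicates 1 and 2. Other genes did not follow them. The collagen *col-10* was at 5471, 9408 and 11380 FPKM against 14140, 10400 and 5791 in N2, with degron replicate 1 and N2 replicate 3 lowest. *myrf-1*, a transcription factor needed for molting, was at 75.9, 61.9 and 78.4 FPKM, and the precuticle gene *sym-1* at 294, 226 and 331, so both varied less between the degron replicates. The 18 furrow and body-shape collagens tested had 0 calls and a median log2 fold change of -0.54 against N2, and -2.25 against *dpy-27::AID*, again with 0 calls. For the 11 precuticle genes the medians were 0.08 and -0.59, and for 22 molting genes 0.16 and -0.94. Their part in the other results was not tested.

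Stress and pathogen response genes had no call, where 0.293% of all genes had one. The 12 heat shock and unfolded protein genes tested had a median log2 fold change of 0.11, and *hsp-16.48*, a small heat shock gene, was at 224, 751 and 620 FPKM against 151, 94.9 and 389. The 15 detoxification and metal response genes had a median of 0.35. *lys-7*, an antimicrobial lysozyme, was at 4659, 1861 and 954 FPKM in the degron strain, above 669, 457 and 882 in N2 in each library, and at 250, 279 and 1122 in *dpy-27::AID*. Its log2 fold changes of 1.65 and 2.24 did not pass (limma adjusted p = 0.153 and 0.0837). The 17 pathogen response genes tested had medians of 0.28 against N2 and 1.22 against *dpy-27::AID*.

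Markers of the main larval tissues were present in both strains. Those of intestine, body wall muscle and pharynx, such as *asp-1*, *mlc-2* and *tni-4*, had list medians of 0.07, -0.15 and -0.31, with 0 calls among 11, 11 and 9 genes tested. Against *dpy-27::AID* their medians were 0.13, 0.13 and 0.20. The 7 hypodermis and seam genes tested, which include the collagens *dpy-7*, *rol-6* and *col-10*, had a median of 0.15 against N2 and -1.23 against *dpy-27::AID*, with 0 calls in either. The median of the centred log2 values of these 7 genes, relative to autosomal genes, was -1.08 to 0.33 in the degron libraries, -1.21 to -0.78 in N2 and 0.42 to 1.13 in *dpy-27::AID*, so the degron libraries overlapped N2 and lay below *dpy-27::AID*. The 15 neuronal genes tested had a median of -0.32 against N2 and 0.24 against *dpy-27::AID*. *unc-18* was their single call, against N2. The 20 germline genes tested had medians of -0.33 against N2 and -0.66 against *dpy-27::AID*, with 0 calls in either. *glh-1* was at 70.8, 99.9 and 61.9 FPKM against 132, 130 and 27.6 in N2. Fewer cells of a tissue and less RNA per cell cannot be told apart in whole animals. All 6 yolk protein genes, made in adults, were below the filter, and 8 of 12 sperm genes were listed at 0 in all 6 libraries. Genes of the male soma were low as well, with 3 of 12 tested. *mab-3*, a regulator of male development, was at 1.66, 2.83 and 0.489 FPKM and listed at 0 in all 3 N2 libraries, but at 4.22, 2.69 and 1.55 in *dpy-27::AID* (limma adjusted p = 0.0557 against N2). The male fate gene *her-1* was listed at 0 in 5 of the 6 libraries. An exact 0 can be a failed estimate, since *unc-22* and *unc-89*, large muscle genes, were listed at 0 in all 6.

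Some well-expressed genes did not overlap between the strains and yet did not pass the test. *gst-33*, a glutathione S-transferase, was at 162, 14 and 8.87 FPKM against 0, 3.41 and 3.77 in N2, and *gpa-12*, a G protein alpha subunit, at 41.0, 48.0 and 31.4 against 14.8, 27.6 and 0. *nekl-3*, a NIMA-related kinase needed for molting, was at 41.8, 58.9 and 44.9 FPKM against 39.6, 27 and 0. On the lower side, *abu-15* was at 7.11, 9.47 and 10.7 FPKM against 56.6, 38.3 and 44.0 (limma adjusted p = 0.0887), and *argk-1*, an arginine kinase, at 6.84, 27.5 and 3.32 against 47.9, 48.5 and 43.8. *Y47G6A.33* was at 2.94, 5.71 and 4.73 FPKM against 65.4, 39.7 and 12. These 3 had 12.7, 8.33 and 39.3, 16.9, 19.2 and 6.07, and 1.05, 1.17 and 3.08 FPKM in *dpy-27::AID*, so N2 was the higher strain for each. The others by the same rule were *spig-5* and *Y82E9BR.18* on the higher side and *pud-4* and the pseudogene WBGene00044997 on the lower.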

How the data were processed

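Poly(A) RNA of whole L3 larvae was sequenced in 33 libraries of 11 conditions, grouped here by their labels. According to their notes, the authors used CutAdapt 2.3 for trimming, Salmon 1.9.0 on WBcel235 for quantification and DESeq2 1.42.0. The deposited table holds FPKM of 21975 genes. How FPKM was computed and scaled is not given in the sources used here, but median-of-ratios factors over 9343 genes above 0 in all libraries were 1.0, so the values were already scaled that way. All 21975 IDs matched the Ensembl WBcel235 annotation. Reads, counts and sequences were not analysed here.

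Genes with a mean of at least 1 FPKM were fitted as log2(FPKM + 0.1) in limma 3.58.1 (R 4.3.3) with 1 mean per condition and a trended prior variance, and p-values were adjusted by Benjamini-Hochberg within each comparison (threshold 0.05). X:A scores and exact permutation tests used Python 3.11.15, numpy 2.4.6, pandas 2.3.3 and scipy 1.17.1, and figures matplotlib 3.10.9. On simulated data with 13309 genes, the test called 25 of 100 genes with a log2 change of 1, 55 of 100 with a change of 2 and 4 of 11036 autosomal genes without change, so many real changes can be missed. The simulated noise was independent and Gaussian, with the same spread of a gene in every condition. The real N2 libraries varied more than the degron libraries, so the rate of false calls in the real data was not tested.

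The comparison and the gene lists were chosen with earlier results of these data known. Named genes are up to 15 X-linked and 25 other called genes, the genes of the dosage compensation and transgene lists, called members or else up to 3 highly expressed members of other lists, and up to 5 higher and 5 lower uncalled genes without overlap and with a mean of at least 20 FPKM. The genes *skr-2*, *calm-1*, *F30A10.2*, *her-1*, *unc-22* and *unc-89* were named after their values were seen. Alternatives were pseudocounts of 1 and 0.01, no filter, a mean of at least 5 FPKM, other scalings, a fit on 6 libraries, array weights, a replicate block and leaving out each library.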

Additional observations from a re-analysis of the deposited data

How the results depend on the processing

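X derepression against N2 was 0.34 to 0.42 with other pseudocounts and filters and 0.37 to 0.48 when 1 library was left out, and the X:A score difference 0.30 to 0.42 and 0.37 to 0.47 (exact p = 0.20 with a library left out, the smallest 2 against 3 allow). Scaling and the replicate block could hardly move X derepression by construction, and gave 0.41. Against *dpy-27::AID*, the score difference was 0.27 to 0.36 and 0.32 to 0.40. Counts of genes were not stable. The 39 genes called against N2 became 24 with a pseudocount of 1, 117 with equal FPKM sums, 1 (*F30A10.11*) in a fit on the 6 libraries compared and 547 with array quality weights, and ran from 5 to 946 with 1 library left out. With the replicate block the count was 25, of which 24 were among the 39. Deviations of libraries with the same number correlated at -0.10, 0.072 and -0.062, so the numbers were not taken to pair the samples. The 5 genes called against *dpy-27::AID* became 8 with a pseudocount of 1, 8 without a filter and 1631 with weights, and ran from 2 to 635 with 1 library left out. All 39 genes kept their sign in each of their 14 or 15 alternatives. *F30A10.11* was called in 15 of 15, *F30A10.14*, *Y73B3A.20* and *lact-8* in 14, and the others in 6 to 12. Among genes that were not called, *dpy-28* and *dpy-30* changed sign with equal FPKM sums, to 0.26 each, *mix-1* and *capg-1* with weights, to -0.19 and -0.040, and *mix-1*, *dpy-26*, *capg-1* and *dpy-21* without N2 replicate 1, to -0.22, -0.10, -0.10 and -0.13. With 1 library left out these 4 ran up to 0.30, 0.29, 0.36 and 0.42. The cause was not tested. Only FPKM was available, and genes near 0 are the least certain.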
